A study of Mus musculus with 6 samples.

Results

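The genes described here make cholesterol and fatty acids. They are 36 genes in 2 groups: a sterol arm of 21 genes, from the first steps of the mevalonate pathway to cholesterol with the sterol sensors, and a fatty acid arm of 15 genes that make, lengthen and desaturate fatty acids. A gene was counted as present when the array's gene name equalled its symbol on a non-control probe. This gave 35 of the 36 genes on 77 of 56605 probes. No probe carried the name Acat2, the cytosolic thiolase that opens the mevalonate pathway, so that gene was not analysed here. All 35 were well above background on all 6 arrays and were among the 20737 genes tested.

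Total RNA from epithelium of the common bile duct was measured on 6 Agilent 1-colour arrays. The 3 DOX+ samples came from C57BL/6 iFGF10 mice whose drinking water held 0.02% doxycycline for 5 days. The 3 DOX- samples came from C57BL/6 mice, called untreated iFGF10 mice in their source names, that drank water alone for 5 days. The labels do not say which promoter or cell type drives the construct. The descriptions of the DOX- samples hold names that start with WT, so whether those mice carried the construct, and whether a sample was pooled, is not settled by the labels. No doxycycline-treated mice without the construct were analysed here, so an effect of the drug and one of the construct cannot be told apart. Because nothing ties each sample to a separate animal beyond doubt, the p-values cover only the spread among these 6 arrays.

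Of 16 cholangiocyte markers, 15 were well above background on all 6 arrays, among them the keratins Krt7 and Krt19, Epcam and Sox9. Cldn4 was so on 2 DOX+ and 2 DOX- arrays and was not tested. Markers of other cell types were detected as widely. On all 6 arrays, 8 of 8 fibroblast, 8 of 8 smooth muscle, 8 of 8 endothelial and 10 of 10 macrophage markers were well above background. So were 11 of 12 hepatocyte and 10 of 12 adipocyte markers. Detection alone therefore does not identify the tissue. Bulk values do not separate the cell types, and fewer cells of a type cannot be told apart from less RNA per cell. Between 55.93% and 61.9% of spots per array were well above background. On the slide, row 1 held the 3 DOX+ arrays with DOX- replicate 1, and row 2 held the other DOX- arrays.

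Cells build cholesterol from acetyl-CoA through mevalonate, isoprenoid units, squalene and lanosterol. They build fatty acids from the same acetyl-CoA through malonyl-CoA. SREBP transcription factors, the products of Srebf1 and Srebf2, switch on both routes. When membranes hold enough sterol, INSIG proteins keep SCAP and the SREBP precursors in the endoplasmic reticulum, and the target genes stay low. SREBP2 acts mainly on the sterol genes and SREBP1c mainly on the fatty acid genes. The factor NF-Y, which binds the letters CCAAT, is a known partner of SREBPs at these promoters. Cholangiocytes face bile, which carries cholesterol secreted by the liver.

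The 150 bases before the annotated start are shown for 5 genes that were chosen as examples holding CCAAT in it: 4 of the 5 sterol genes with the smallest p, and Fasn, the fatty acid synthase. The sequences are from RefSeq on build GRCm38.p6 and run 5′ to 3′ on the gene's strand. Capitals mark CCAAT or its reverse, ATTGG, and in Hmgcs1 also a match to the sterol regulatory element letters TCACNCCAC. Hmgcs1 is at chr13:119690201-119690350 (plus strand), Cyp51 at chr5:4104698-4104847 (minus strand) and Ebp at chrX:8193513-8193662 (minus strand). Idi1 is at chr13:8885456-8885605 (plus strand) and Fasn at chr11:120824548-120824697 (minus strand).
Hmgcs1: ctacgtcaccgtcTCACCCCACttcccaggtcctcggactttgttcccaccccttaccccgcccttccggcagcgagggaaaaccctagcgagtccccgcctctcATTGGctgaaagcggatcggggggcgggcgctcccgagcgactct
Cyp51: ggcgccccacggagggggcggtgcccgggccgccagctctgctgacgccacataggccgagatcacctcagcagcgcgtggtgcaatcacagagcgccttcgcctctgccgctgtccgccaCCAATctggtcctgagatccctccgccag
Ebp: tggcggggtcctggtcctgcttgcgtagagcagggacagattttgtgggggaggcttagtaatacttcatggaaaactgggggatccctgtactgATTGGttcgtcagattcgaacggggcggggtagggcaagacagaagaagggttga
Idi1: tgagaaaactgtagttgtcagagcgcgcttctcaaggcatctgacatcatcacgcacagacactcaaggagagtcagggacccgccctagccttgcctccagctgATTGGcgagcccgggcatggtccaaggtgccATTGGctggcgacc
Fasn: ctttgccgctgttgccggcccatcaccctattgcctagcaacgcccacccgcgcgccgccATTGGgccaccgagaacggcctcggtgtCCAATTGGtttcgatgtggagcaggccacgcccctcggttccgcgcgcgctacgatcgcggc

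RefSeq promoters were at hand for 29 of the 36 genes, 17 in the sterol arm and 12 in the fatty acid arm. Within 250 bases before the start and on either strand, CCAAT occurred in 16 of 17 sterol genes (94.12%) and in 7 of 12 fatty acid genes (58.33%). Acat2, Acaca, Acly, Elovl6, Elovl7 and Fads2 held none in that window. Whether the annotated start used for Acaca (window chr11:84195188-84195437) is the first start of that gene was not checked. CCAAT occurred in 39.57% of the 12372 tested genes with a promoter. The letters TCACNCCAC occurred in 1 of 17 sterol genes, Hmgcs1, where TCACCCCAC begins 137 bases before the start, in 0 of 12 fatty acid genes and in 1.24% of tested genes. The E-box CACGTG occurred in 4 of 17 sterol genes and 1 of 12 fatty acid genes, against 9.21% of tested genes. No motif searched contains another. A match describes the letters only.

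The comparison of DOX+ with DOX- epithelium asks which genes differ after 5 days of doxycycline in a model built to study FGF10. None of the 35 genes passed the limma test at an adjusted p under 0.05, which 0.0386% of all genes tested did. The smallest adjusted p among them was 0.309, for Acss2. The means were lower in DOX+ for 31 of 35 genes, against 51.2% of all genes, and higher for 4, against 48.8%. The median log2 difference, DOX+ minus DOX-, was -0.37, against -0.01 over all genes. At an unadjusted p under 0.05, 3 genes were lower (6.17% of all genes were) and 1 was higher (7.17%). The 3 DOX+ arrays lay wholly below the 3 DOX- arrays for 5 genes (10.6% of all genes) and wholly above for 2 (10.4%). By calls and by separation of the groups the members were thus near the background. Their means lay lower more often than those of all genes.

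**Figure D1:**
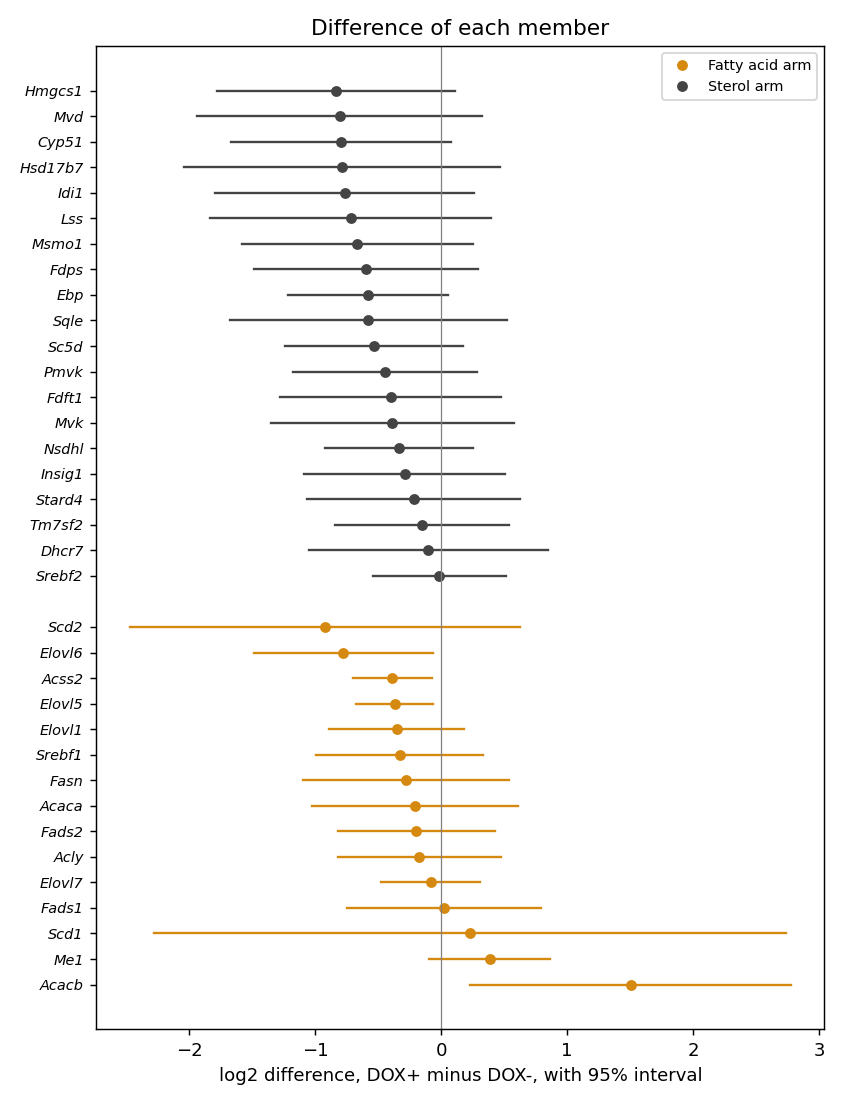
Log2 difference, DOX+ minus DOX-, of the 35 genes (points) with the 95% interval of the limma fit (lines), from 3 DOX+ and 3 DOX- arrays. All 20 sterol genes lie at or below 0 with intervals that reach past 0, while the fatty acid genes lie on both sides, Acacb highest at 1.503.

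In the sterol arm all 20 measured genes had a lower mean in DOX+, by 0.01 to 0.83 on the log2 scale, with a median of -0.56. None reached an unadjusted p of 0.05, and the smallest adjusted p was 0.404. In 2 of the 20 genes, Ebp and Cyp51, the DOX+ arrays lay wholly below the DOX- arrays, near the share of 10.6% among all genes. Of the 36 sterol probes that passed the filter, 35 had a lower mean in DOX+ and 1, a second probe of Tm7sf2, was at 0.01. Values below are log2 levels, that is, log2 of the processed intensity minus the 75th percentile of its array, with replicates 1, 2 and 3 in order.

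The first steps of the pathway make mevalonate and then activated isoprene. Hmgcs1, the cytosolic HMG-CoA synthase, had levels of 4.12, 4.31 and 3.44 in DOX+ and 4.24, 4.60 and 5.52 in DOX-. DOX- replicate 3 was the highest and DOX+ replicate 3 the lowest, and DOX+ replicate 2 lay above DOX- replicate 1, so the groups overlapped. The difference was -0.83 (SE 0.39, limma adjusted p = 0.415), a level 0.562 times that in DOX-. Its probe lies at 114793 to 114852 of the unplaced chromosome 13 sequence of mm9. Idi1, which interconverts the isoprene units, had levels of 2.32, 2.71 and 1.59 in DOX+ and 2.31, 2.94 and 3.67 in DOX-. DOX+ replicates 1 and 2 lay within the DOX- range, and the difference was -0.77 (SE 0.42, limma adjusted p = 0.481; probe at chr13:8891524-8891583, mm9).

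Mvd, the mevalonate diphosphate decarboxylase, had levels of 0.60, 0.31 and -0.23 in DOX+ and 0.28, 0.82 and 2.01 in DOX-. Only DOX+ replicate 3 lay below all DOX- arrays, and the difference was -0.81 (SE 0.47, limma adjusted p = 0.497). The kinases Pmvk and Mvk, which add phosphates to mevalonate, had differences of -0.44 (SE 0.30) and -0.39 (SE 0.40). Fdps, which joins isoprene units into farnesyl diphosphate, had a difference of -0.60 (SE 0.37). Each of these 4 genes had overlapping groups.

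Squalene synthesis and its closure to lanosterol follow. Fdft1, the squalene synthase, differed by -0.40 (SE 0.36), and Lss, the lanosterol synthase, by -0.72 (SE 0.46). Sqle, the squalene epoxidase, differed by -0.58 (SE 0.45). All 3 genes had overlapping groups.

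The late enzymes turn lanosterol into cholesterol. Ebp, the sterol isomerase, had levels of 3.97, 4.26 and 3.78 in DOX+ and 4.26, 4.38 and 5.10 in DOX-. The DOX+ arrays all lay below the DOX- arrays, although DOX+ replicate 2 and DOX- replicate 1 were almost equal. The difference was -0.58 (SE 0.26, limma adjusted p = 0.404; probe at chrX:7762463-7762522, mm9). Cyp51, the lanosterol demethylase, had levels of 1.99, 2.01 and 1.29 in DOX+ and 2.02, 2.40 and 3.24 in DOX-. Here too the groups did not overlap but nearly touched, and the difference was -0.79 (SE 0.36, limma adjusted p = 0.406; probe at chr5:4082122-4082181, mm9).

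Sc5d, the sterol desaturase, had levels of 1.97, 2.37 and 1.94 in DOX+ and 2.15, 2.52 and 3.20 in DOX-. DOX+ replicate 2 lay above DOX- replicate 1, and the difference was -0.53 (SE 0.29, limma adjusted p = 0.474). Of the demethylation enzymes, Msmo1 differed by -0.66 (SE 0.38), Hsd17b7 by -0.79 (SE 0.52) and Nsdhl by -0.33 (SE 0.24). Dhcr7, which makes cholesterol from its last precursor on one branch, differed by -0.10 (SE 0.39). Tm7sf2, a sterol reductase, had levels of 2.77, 3.21 and 2.86 in DOX+ and 2.67, 2.94 and 3.68 in DOX-, and its probes at -0.15 (SE 0.28) and 0.01 were on opposite sides of 0.

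The regulators had some of the smallest differences of the arm. Insig1, the sterol-induced retention protein and itself an SREBP target, had levels of -0.37, -0.35 and -0.64 in DOX+ and -0.61, -0.46 and 0.58 in DOX-. Its difference of -0.29 (SE 0.33, limma adjusted p = 0.734) rested on DOX- replicate 3, and was 0.08 without that array. Srebf2, which encodes SREBP2, had levels of 1.90, 2.02 and 1.84 in DOX+ and 1.55, 1.92 and 2.34 in DOX-, with the DOX+ arrays inside the DOX- range. Its difference was -0.01, with a 95% interval of -0.54 to 0.51 (limma adjusted p = 0.985). Stard4, a cytosolic sterol carrier, differed by -0.22 (SE 0.35).

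**Figure D2:**
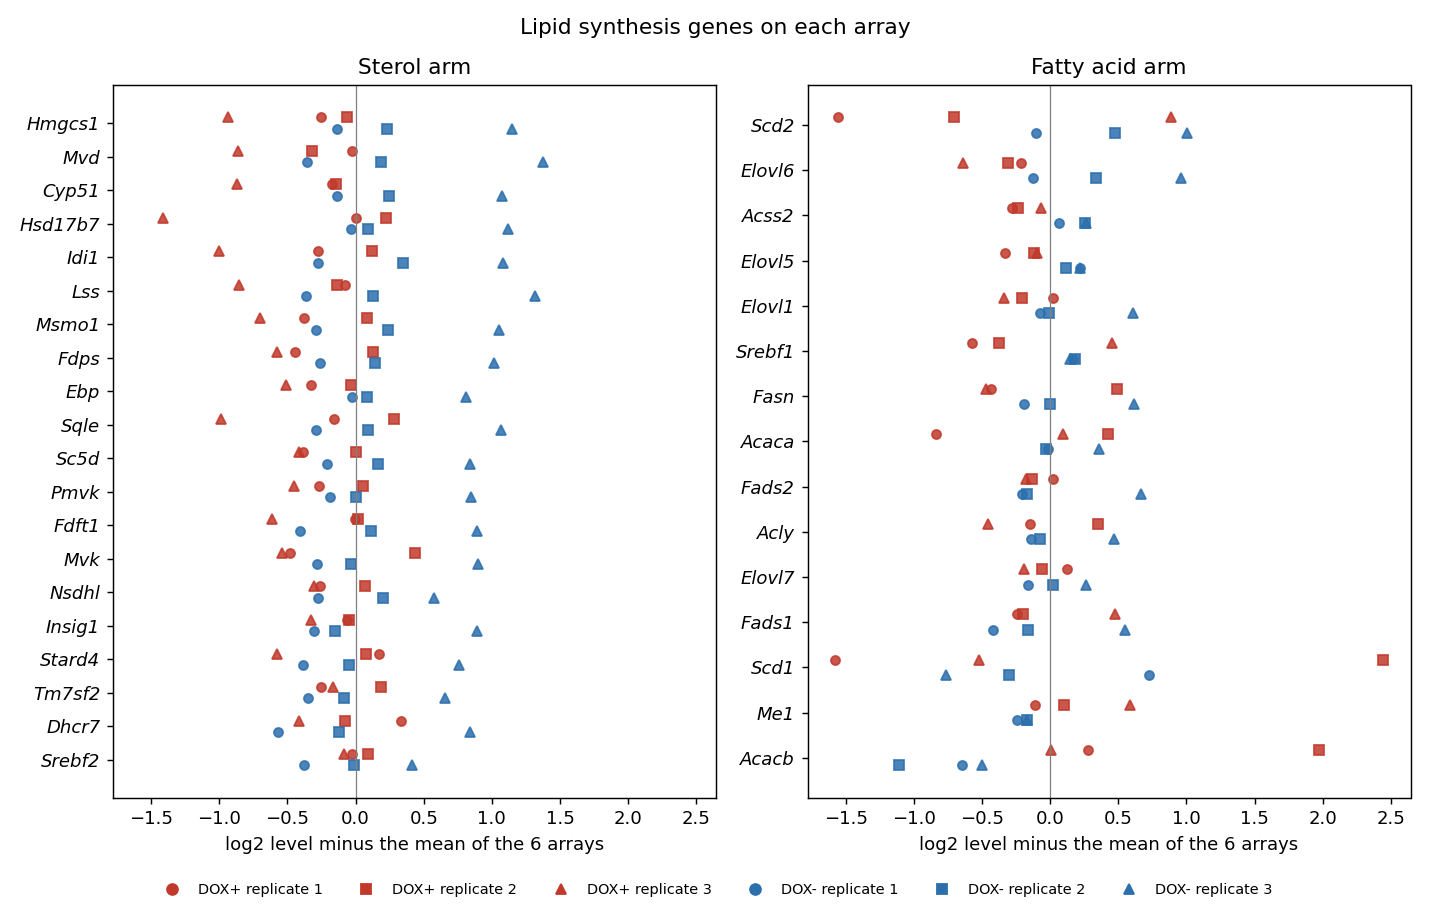
Log2 level of each of the 35 genes on each array, minus its mean over the 6 arrays, with sterol genes at left and fatty acid genes at right (red DOX+, blue DOX-, symbols for replicates). DOX- replicate 3 is the highest array for all 20 sterol genes and DOX+ replicate 3 the lowest for 17, and among fatty acid genes these arrays are the highest for 10 of 15 and the lowest for 5.

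The sterol genes varied together from array to array. DOX- replicate 3 was the highest of the 6 arrays for 20 of 20 sterol genes, which it was for 32.6% of all genes tested. DOX+ replicate 3 was the lowest for 17 of 20, against 20.3% of all genes, and DOX- replicate 1 was the lowest for the other 3. Across the 6 arrays, the correlation of each sterol gene with the mean of the rest of its arm was 0.808 to 0.986, with a median of 0.958. These values describe 6 arrays that hold the group difference as well. The arm's median level per array, with each gene centred on its mean, was -0.21, 0.06 and -0.58 in DOX+ and -0.29, 0.10 and 0.89 in DOX-. Both groups thus held arrays near 0, and the DOX- range of 1.18 and the DOX+ range of 0.64 were each wider than the difference of -0.48 between the group means.

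The size of the sterol shift depended on single arrays. Without DOX- replicate 3 the median difference was -0.21 and 15 of 20 genes had a lower mean in DOX+, and without DOX+ replicate 3 it was -0.30. With slide row in the fit, DOX- replicate 1 is the sole array that the DOX+ arrays are compared with, and the median was -0.02 and 10 of 20 genes were lower. Among DOX- arrays, the sterol arm was lowest on replicate 1 (-0.29). The fit therefore cannot tell the slide row apart from that array, and the part of the slide row was not tested. DOX- replicate 3 also had the lowest share of spots well above background, 55.93%, and its part was not tested.

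Outside the lists, the genes whose pattern over the 6 arrays was most like the sterol arm mean were Tbrg1 (Pearson's r 0.996), Arl1 (0.995), Sumo2 (0.995) and 2 probes' genes known only by transcript names, ENSMUST00000182321 (0.997) and ENSMUST00000118272 (0.995). Their differences were -0.33, -0.18, -0.24, -0.13 and -0.15, in that order. With 6 arrays and 20737 genes these values are a description.

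The fatty acid arm was mixed. Of its 15 genes, 11 had a lower and 4 a higher mean in DOX+, with a median of -0.21 and a range from -0.92 to 1.503. At an unadjusted p under 0.05 by limma, 3 genes were lower (Acss2, Elovl5 and Elovl6), against 6.17% of all genes. Only Acacb was higher, against 7.17% of all genes. The same 3 genes had DOX+ arrays wholly below the DOX- arrays (10.6% of all genes did), and Acacb and Me1 had them wholly above (10.4%). Of 32 probes that passed the filter, 24 were lower and 8 higher. The higher ones include an Acaca and an Acacb probe that passed the filter through DOX+ alone. None of the 15 genes passed the limma test after adjustment.

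Acetyl-CoA and NADPH feed the pathway. Acss2, the cytosolic acetyl-CoA synthetase, had levels of 2.41, 2.45 and 2.62 in DOX+ and 2.75, 2.94 and 2.94 in DOX-. Every DOX+ array was below every DOX- array, with little spread in either group. The difference was -0.39 (SE 0.13, limma adjusted p = 0.309; probe at chr2:155388385-155388444, mm9), and its 4 probes gave -0.44 to -0.06. It stayed between -0.45 and -0.35 when any single array was left out, and was -0.26 with the slide row as a block. Me1, the malic enzyme that makes NADPH, had levels of 4.28, 4.49 and 4.97 in DOX+ and 4.14, 4.22 and 4.22 in DOX-. All DOX+ arrays were higher, DOX+ replicate 3 the most, and the difference was 0.39 (SE 0.20, limma adjusted p = 0.451), or 0.19 without DOX+ replicate 3.

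Acly, which splits citrate to acetyl-CoA, had levels of 3.80, 4.29 and 3.49 in DOX+ and 3.81, 3.87 and 4.41 in DOX-. The groups overlapped, and its 2 probes gave -0.17 (SE 0.27) and 0.02.

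Acetyl-CoA carboxylases make malonyl-CoA, and fatty acid synthase uses it. Acacb, the mitochondrial carboxylase whose product restrains fatty acid oxidation, had levels of 0.03, 1.72 and -0.24 in DOX+ and -0.89, -1.35 and -0.74 in DOX-. All DOX+ arrays were higher and DOX+ replicate 2 stood far above the others. The difference was 1.503 (SE 0.53, limma adjusted p = 0.324; probe at chr5:114700702-114700761, mm9), and 0.89 without DOX+ replicate 2. A second Acacb probe, well above background on all 6 arrays, gave -0.09, and the remaining one, well above background on 3 DOX+ arrays and 1 DOX- array, gave 0.50.

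Acaca, the cytosolic carboxylase of fatty acid synthesis, had levels of 0.55, 1.81 and 1.48 in DOX+ and 1.36, 1.35 and 1.74 in DOX-. DOX+ replicates 1 and 2 were the lowest and the highest arrays, and the difference was -0.21 (SE 0.34). Its other kept probes gave -0.32, -0.27 and 0.89. The probe at 0.89 was well above background on 3 DOX+ arrays and 1 DOX- array. It passed the filter through DOX+ alone, where it was higher, so the filter favoured its direction. Fasn, the fatty acid synthase, had levels of 4.03, 4.95 and 3.99 in DOX+ and 4.27, 4.46 and 5.08 in DOX-. Its groups overlapped, with a difference of -0.28 (SE 0.34).

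Elongases and desaturases shape the product. Elovl5, which lengthens polyunsaturated fatty acids, had levels of 1.37, 1.59 and 1.61 in DOX+ and 1.92, 1.82 and 1.93 in DOX-. The groups were apart, and the difference was -0.37 (SE 0.13, limma adjusted p = 0.320; probe at chr9:77832205-77832264, mm9). Elovl6, which lengthens palmitate to stearate, had levels of 1.49, 1.39 and 1.06 in DOX+ and 1.57, 2.04 and 2.66 in DOX-. DOX+ replicate 1 and DOX- replicate 1 lay close together, and the difference was -0.78 (SE 0.29, limma adjusted p = 0.348; probe at chr3:129337756-129337815, mm9). Elovl1 and Elovl7, which act on longer chains, differed by -0.35 (SE 0.22) and -0.08 (SE 0.16).

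Scd2 and Scd1 are stearoyl-CoA desaturases, which make monounsaturated fatty acids. Scd2 had levels of 3.07, 3.92 and 5.51 in DOX+ and 4.53, 5.11 and 5.64 in DOX-. DOX+ replicate 3 lay within the DOX- range and the other DOX+ arrays below it, and the difference was -0.92 (SE 0.64, limma adjusted p = 0.562; probe at chr19:44381024-44381083, mm9). It was -1.59 without DOX+ replicate 3 and -0.37 without DOX+ replicate 1. Scd1 had levels of -1.95, 2.07 and -0.90 in DOX+ and 0.35, -0.67 and -1.14 in DOX-. DOX+ replicate 2 was far above all others, and the difference of 0.23 (SE 1.03) was -0.94 without it.

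Fads1, the desaturase that makes arachidonic acid, had levels of 0.82, 0.86 and 1.54 in DOX+ and 0.65, 0.90 and 1.61 in DOX-. The difference was 0.02 (SE 0.32), and its other probes gave -0.25 and -0.16. Fads2, which acts before it, differed by -0.20 (SE 0.26). Srebf1, which encodes SREBP1, had levels of 4.23, 4.43 and 5.26 in DOX+ and 4.97, 4.98 and 4.95 in DOX-. The DOX- arrays were nearly equal, the DOX+ arrays lay on both sides of them, and the difference was -0.33 (SE 0.27, limma adjusted p = 0.630). It was -0.64 without DOX+ replicate 3 and -0.12 without DOX+ replicate 1.

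Correlation of each fatty acid gene with the mean of the rest of its arm was -0.081 to 0.938 over the 6 arrays, with a median of 0.362. With the sterol arm mean, 6 of the 15 fatty acid genes had a correlation above 0.8: Elovl6 (0.931), Elovl1 (0.917), Acly (0.879), Fads2 (0.866), Elovl7 (0.853) and Fasn (0.839). These too describe 6 arrays. The share of all genes with a correlation above 0.8 was not counted, and a gene outside the lists reached 0.997. The arm's median centred level per array was -0.25, -0.12 and -0.10 in DOX+ and -0.13, -0.01 and 0.36 in DOX-. DOX- replicate 3 was the highest array for 10 of 15 genes, against 32.6% of all genes. DOX+ replicate 1 was the lowest for 6, against 13.5% of all genes. The arm's median difference of -0.21 was -0.08 without DOX- replicate 3, -0.33 without DOX- replicate 1, -0.32 without DOX- replicate 2 and -0.37 without DOX+ replicate 2. The sterol arm minus the fatty acid arm was 0.04, 0.18 and -0.48 in DOX+ and -0.16, 0.11 and 0.53 in DOX-. Those values overlapped, and their difference of -0.25 became 0.07 with the slide row as a block, -0.05 without DOX- replicate 3, -0.07 without DOX+ replicate 3 and -0.43 without DOX- replicate 1. An unequal shift of the arms was therefore not shown.

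Genes of the same pathways outside the 36 were read from lists, and none of their genes passed the limma test. Of 8 genes of sterol uptake and traffic, the mean was lower for 3 and higher for 5 (median 0.03), which turned to -0.08 without DOX+ replicate 2, -0.07 without DOX- replicate 1 and -0.04 without DOX- replicate 2. Of these 8, 7 were well above background on all 6 arrays. The other, with a lower mean, passed the filter through DOX- alone. Scarb1, the HDL receptor, differed by 0.25 (SE 0.13). Of 4 genes of SREBP processing 1 was lower and 3 higher, with a median of 0.02 that lay between -0.02 and 0.09 without single arrays, among them Insig2 at 0.13 (SE 0.13) and Scap at -0.04 (SE 0.14). Of 8 genes of LXR and sterol efflux 1 was lower and 7 higher, with a median of 0.23 (0.03 without DOX- replicate 3, 0.13 without DOX+ replicate 3 and 0.47 without DOX- replicate 1), among them the sterol exporter Abcg8 at 0.63 (SE 0.30) and Mylip at 0.46 (SE 0.42).

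Of 22 other fatty acid genes 19 were tested, 12 lower and 7 higher, with a median of -0.08 that lay between -0.13 and -0.02 without single arrays. Elovl2, Elovl3 and Elovl4 were not well above background on all arrays of either group. Hacd4, an enzyme of fatty acid elongation, differed by -0.90 (SE 0.29), and Acsl5, which activates fatty acids, by -0.62 (SE 0.23). Of 9 glycerolipid genes 1 was lower and 8 higher, with a median of 0.32, among them the lipase Pnpla2 at 0.42 (SE 0.15) and Dgat1, which completes triglycerides, at 0.36 (SE 0.19).

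Of 11 genes of fatty acid oxidation 2 had a lower and 9 a higher mean in DOX+, with a median of 0.35. Their median centred levels were 0.75, 0.19 and -0.26 in DOX+ and -0.37, -0.29 and -0.02 in DOX-, so the groups overlapped and DOX+ replicate 1 was the highest array. The median difference was 0.23 without DOX+ replicate 1 and 0.78 without DOX+ replicate 3. Ehhadh, a peroxisomal oxidation enzyme, had levels of 1.51, 0.89 and 0.90 in DOX+ and 0.19, 0.38 and 0.39 in DOX-. All DOX+ arrays were higher, with a difference of 0.78 (SE 0.20, limma adjusted p = 0.240). Acadm, an acyl-CoA dehydrogenase of mitochondria, differed by 0.35 (SE 0.13).

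**Figure D3:**
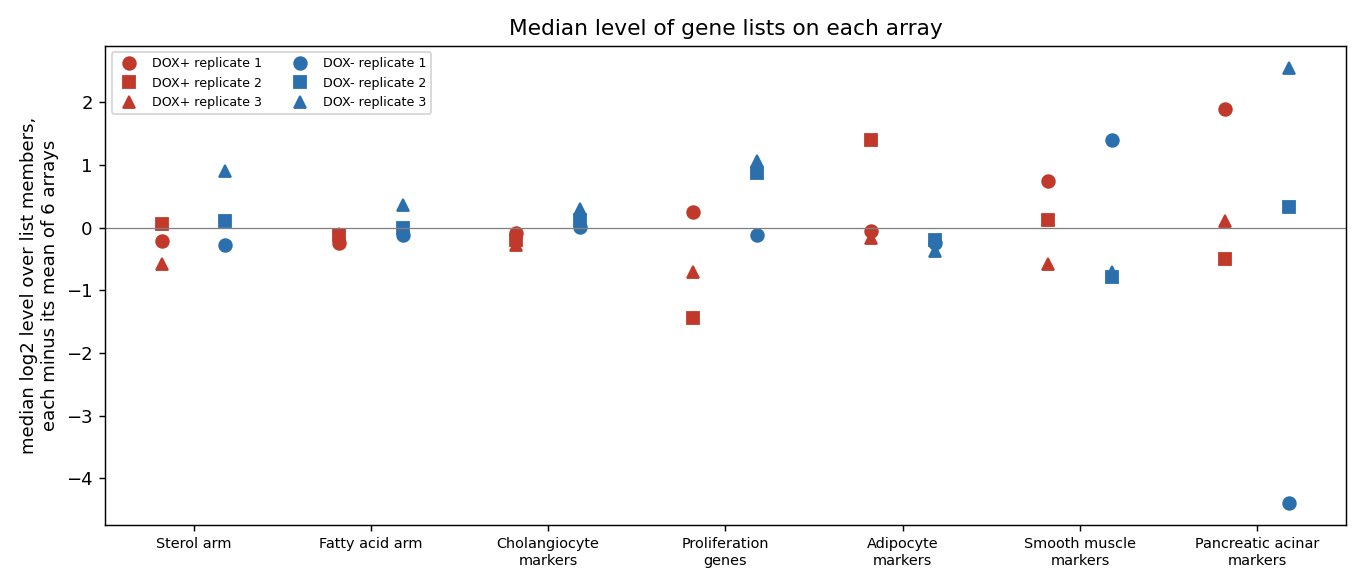
Median log2 level of 7 gene lists on each array, each gene minus its mean over the 6 arrays (red DOX+, blue DOX-, symbols for replicates). The sterol arm is highest on DOX- replicate 3, at 0.89. So are the fatty acid arm, cholangiocyte markers, proliferation genes and pancreatic acinar markers, the last at 2.55. The adipocyte markers are highest on DOX+ replicate 2, at 1.39.

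Other lists also differed from array to array. Cholangiocyte markers had medians of -0.08, -0.20 and -0.28 in DOX+ and 0.01, 0.11 and 0.29 in DOX-, with 12 lower and 3 higher of 15 and a median difference of -0.22 (-0.35 without DOX+ replicate 1). Their summed level, in multiples of the array's 75th percentile, was 661.7 to 812.2 in DOX+ and 775.5 to 1107 in DOX-. Krt7 differed by -1.01 (SE 0.19) and Cldn7 by -0.79 (SE 0.24). Proliferation genes had medians of 0.25, -1.44 and -0.71 in DOX+ and -0.12, 0.87 and 1.07 in DOX-, with 15 of 15 lower. Their summed levels were 8.44 to 15.5 in DOX+ and 12.1 to 26.5 in DOX-. Of the 15, 11 were well above background on all 6 arrays. Bub1b, at -1.25 (SE 0.29), Tpx2, Aurkb and Ccnb1 were so on 2 DOX+ and 3 DOX- arrays. They passed the filter through DOX- alone, where they were higher, so the filter favoured their direction. DOX- replicate 3 was the highest array in both lists, as in the sterol arm, and their part in the sterol result was not tested.

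Adipocyte markers were high on DOX+ replicate 2, apart from Pparg and Lep, which were highest on DOX- replicate 3. Acacb, Scd1 and Acaca were also highest on DOX+ replicate 2. The medians of the adipocyte markers were -0.05, 1.39 and -0.17 in DOX+ and -0.24, -0.20 and -0.38 in DOX-. Of 10 tested, 1 was lower and 9 were higher, with a median difference of 0.69. Without DOX+ replicate 2 the median was 0.19, with 4 lower and 6 higher, and it was 1.05 without DOX+ replicate 1 and 1.23 without DOX+ replicate 3. Their summed level was 9.57 to 30.6 in DOX+ and 9.73 to 11.7 in DOX-. The defining markers Adipoq and Plin1 were well above background on 1 array, DOX+ replicate 2, and on 0 DOX- arrays. Fabp4, a fatty acid carrier of adipocytes chosen after its values were seen, had levels of -0.22, 2.49 and -1.64 in DOX+ and -1.02, -1.51 and -0.90 in DOX-. The part of adipocyte RNA in the Acacb, Scd1 and Acaca values was not tested.

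**Figure D4:**
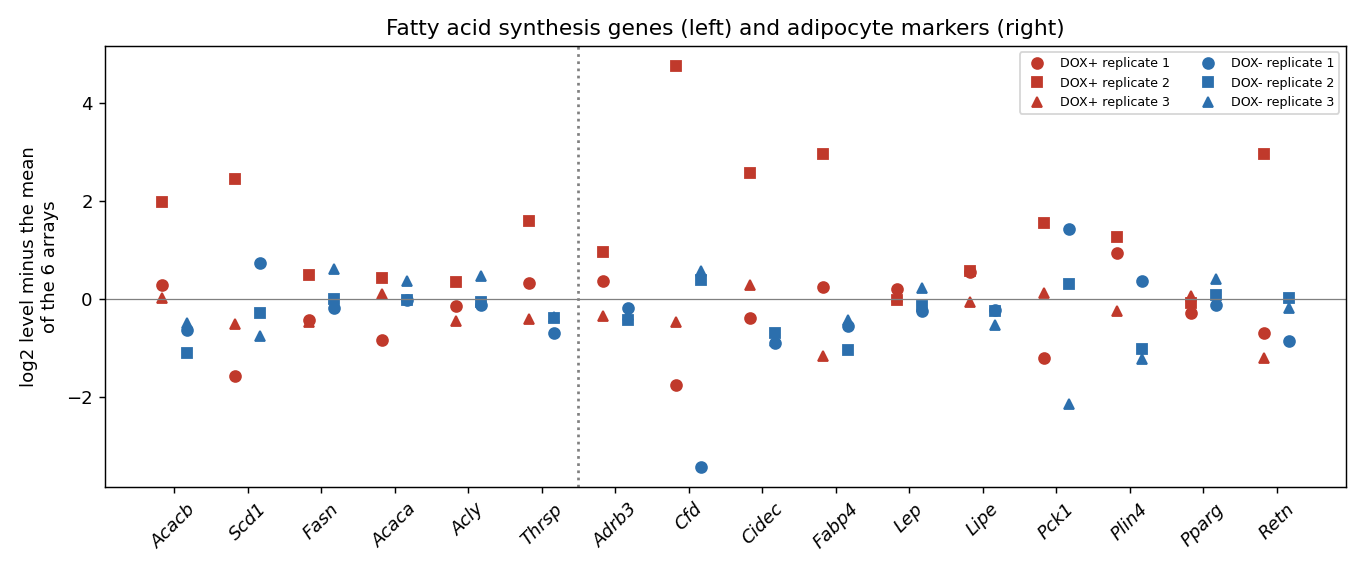
Log2 level, minus the mean of the 6 arrays, of 6 fatty acid synthesis genes (left of the dotted line) and 10 adipocyte markers (right), for each DOX+ (red) and DOX- (blue) array. Acacb, Scd1, Acaca and Thrsp are highest on DOX+ replicate 2, as are the adipocyte markers shown other than Pparg and Lep. Fasn, Acly, Pparg and Lep are highest on DOX- replicate 3.

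Markers of further cell types had these counts and median differences. Hepatocyte markers had 8 lower and 3 higher (-0.33), but 3 lower and 8 higher without DOX+ replicate 1 (0.45), 4 lower and 7 higher without DOX- replicate 1 (0.32), and 11 lower without DOX- replicate 3 (-1.11). Pancreatic acinar markers had 0 lower and 11 higher (0.94), and this rested on DOX- replicate 1, where they were lowest, since without it 10 were lower and 1 higher (-1.02). Their median level was highest on DOX- replicate 3 (2.55), the array where the sterol arm was also highest. Fibroblast markers had 4 lower and 4 higher (-0.04, and -0.14 to 0.19 without single arrays). Smooth muscle markers had 4 lower and 4 higher (0.09), from 7 lower without DOX- replicate 2 (-0.26) to 0 lower without DOX- replicate 1 (0.82). Macrophage markers had 4 lower and 6 higher (0.11), but 8 lower without DOX- replicate 3 (-0.28) and 6 lower without DOX+ replicate 1 (-0.05). Mast cell markers had 1 lower and 8 higher (2.17, and 1.67 to 2.61 without single arrays), and endothelial markers 0 lower and 8 higher (0.55, and 0.44 to 0.69 without single arrays). Of the tested mast cell markers, 7 of 9 were well above background on all 6 arrays, and of the acinar markers 7 of 11. The rest of these 2 lists passed the filter through DOX+ alone, where their means were higher, so the filter favoured their direction. None of the markers passed the limma test, and their part in the values of the lipid genes was not tested.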

How the data were processed

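The 36 genes and all gene lists were chosen with earlier results of these data known, so no p-value is given over a list. The authors deposited scanner files of spot intensity, made with Agilent Feature Extraction. The file headers give its version as 10.7.1.1, and the submitters' processing notes give 9.5.1.1. Per the file headers the processed intensity is background-subtracted within an array, and probe positions are on mm9. The deposited table of the authors' processed intensity values has the same sorted values in every column to a relative difference of 0.00034, with a median of 57.8. It is on a linear scale and was used as an alternative.

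From the deposited intensity, each processed signal was put on a log2 scale relative to the 75th percentile of its array. Spots of a probe were averaged without outlier spots. A probe passed the filter when every array of DOX+ or every array of DOX- (3 each) flagged it well above background, and the brightest kept probe stood for a gene. Names came from the RefSeq table of GRCm38.p6, through accessions for 32994 probes, current symbols for 10224 and older symbols for 520, while 12867 kept the file's name. limma 3.58.1 in R 4.3.3 compared 3 DOX+ with 3 DOX- arrays by lmFit and eBayes with group as the sole term. P-values are two-sided and adjusted by Benjamini-Hochberg over the 20737 genes, with a threshold of 0.05. The fit was tested on simulated data. The number of arrays limits the precision, with a median SE of 0.185 for a log2 difference.

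Values per array are given for the 5 genes of each arm with the smallest p, the 2 largest differences in each direction, Srebf1, Srebf2, Insig1 and genes whose kept probes differ in sign. A few more are given for context. Of each pathway list described, the 2 genes with the smallest p are named, except for items that are not reported here. Alternatives were other normalisations, background corrections and probe filters, the authors' values, the mean of probes, slide row and replicate blocks, array weights and leaving out each array, which for the pathway and marker lists was added after seeing the data.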

Additional observations from a re-analysis of the deposited data

How the results depend on the processing

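No member passed the test under any alternative run. The number of genes called among all tested was 8. It was 2 with quantile normalisation, 2 with the authors' values, 1 without a filter on dim probes, 5 with probes well above background on all 6 arrays, 0 with the slide row as a block by limma (1418 at an unadjusted p under 0.05) and 1017 with array weights, estimated gene by gene, where DOX- replicate 2 had a weight of 6.64. Leaving out each array gave 0 (without DOX- replicate 2, 1547 at an unadjusted p under 0.05 by limma) to 30. With the replicate number as a block it was 0 by limma (2255 at an unadjusted p under 0.05). Same-numbered arrays had correlations of deviations of -0.087, -0.131 and -0.02, and other pairs of arrays -0.129 to 0.219. A pairing by number was thus not seen, but 3 arrays per group cannot exclude it. The cause of these shifts was not tested.

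The sterol arm median was -0.017 with the slide row as a block (10 of 20 lower), -0.28 with array weights (15 of 20 lower) and -0.75 to -0.21 without single arrays. The fatty acid median was -0.09 with the slide row, -0.03 with array weights and -0.37 to -0.08 without single arrays. The sterol arm minus the fatty acid arm was 0.071 with the slide row and -0.43 to -0.05 without single arrays.

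Of 525 member values under alternatives, 480 kept their sign and 45 turned. Of these values 118 could not turn, being the same as before: all 35 with each of 3 alternatives (both changes of the probe filter and the replicate block) and 13 with the mean of probes. The authors' values lay within 0.003 of quantile normalisation and add no separate check. Quantile normalisation and the authors' values gave Srebf2 0.054. The mean of probes gave Acaca 0.024 and Fads1 -0.13. The Acaca mean includes the probe that passed the filter through DOX+ alone. The slide row gave Mvk 0.087, Fdft1 0.21, Sqle 0.001, Lss 0.005, Tm7sf2 0.27, Nsdhl 0.11, Dhcr7 0.52, Insig1 0.16, Stard4 0.28, Srebf2 0.37, Acly 0.05, Fasn 0.055, Scd1 -0.61, Elovl7 0.12 and Fads2 0.11. Array weights gave Tm7sf2 0.055, Dhcr7 0.12, Insig1 0.017, Stard4 0.027, Srebf2 0.05, Acly 0.089, Fasn 0.004 and Fads2 0.043. Without single arrays the values ran for Acaca from -0.47 to 0.16, Acly -0.39 to 0.018, Dhcr7 -0.41 to 0.29, Elovl7 -0.19 to 0.029, Fads1 -0.21 to 0.30, Fads2 -0.35 to 0.089, Insig1 -0.51 to 0.082, Scd1 -0.94 to 1.07, Srebf2 -0.21 to 0.19, Stard4 -0.47 to 0.11 and Tm7sf2 -0.36 to 0.14.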
